A study of Mus musculus with 7 samples.

Results

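Stomach-type tissue grown from mouse embryonic stem (ES) cells was compared at culture day 46, after 4 days in which the proteins Shh and Bmp4 were added, and at day 42, before that step. Each side was 1 array, 2 of the 7 in the series. Every named gene well above background on at least 1 of the 2 arrays was taken, which gave 15474 of the 17041 genes with a value. Both cultures were kept in DMEM/F12 with N2/B27 and EGF at 50 ng/mL. Up to day 42 the cells also received FGF10 at 100 ng/mL, Wnt3a, Noggin, which blocks BMPs, and R-spondin1 at 250 ng/mL, which strengthens Wnt signals. From day 42 the other culture received Shh at 100 ng/mL and Bmp4 at 10 ng/mL, and whether any earlier factor was taken away is not given in the labels. Medium and time in culture differed together, and no day 46 culture kept in the first medium was analysed here. The labels name neither the ES line nor the number of cultures behind an array. The other 5 arrays held adult stomach, intestine, esophagus and lung of ICR mice and stomach primordium of embryonic day 9.5 (E9.5), and are used here as reference levels.

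Shh is a ligand made by gut epithelium that acts on neighbouring mesenchyme through the receptors Ptch1 and Smo and the Gli transcription factors. BMP4 is made by mesenchyme and signals through receptor kinases and Smad proteins, which switch on the Id genes and the inhibitory Smads. In the gut, BMP signals are known for favouring mature epithelial cells over dividing ones, while FGF10, Wnt and R-spondin support progenitor growth and Noggin holds BMP signals down.

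Levels are log2 signals relative to the 75th percentile of the same array, and a difference is the level at day 46 minus that at day 42, so that 1 stands for 2-fold. A fold written as "at least" is a lower bound, given where only the higher of the 2 arrays was well above background. There were no replicates, so no test was made and no standard deviation over samples exists. Each array lay on a slide of its own and was scanned at another time, so slide, scan and culture condition cannot be told apart. The only measure of technical spread came from the arrays themselves. Different probes of the same gene had a standard deviation of 0.514 in their difference, over 4558 genes with several probes, and repeated spots of 1 probe had a median standard deviation of 0.065 at day 42 and 0.074 at day 46. No spot was saturated, control spots not counted. The 10 spike-in RNA probes, which do not come from the tissue, differed by a median of -3.84 in unscaled log2 signal (range -4.36 to 2.25), and 9 of them lay below the median of the other arrays at day 46. The labels name 2 RNA extraction kits without saying which sample had which, so the amount of spike-in, the labelling, the kit and the culture cannot be told apart. Of the 9 markers of stomach epithelium, 8 were above background at day 42 and all 9 at day 46, and 4 were at least 2-fold higher and 3 lower. Their summed relative signal was 32.9 and 209, of which Gkn2 alone gave 1.64 and 139. The 6 squamous markers, 5 of them higher by 2-fold, summed to 10.3 and 73.0, of which Sprr1a gave 6.88 and 61.8. The 4 goblet cell markers on the array, 3 of them higher and 1 lower, summed to 8.33 and 242, of which Clca1 gave 0.496 and 217. Markers of other cell types were present as well: fibroblast markers summed to 562 and 451, cardiac muscle markers to 274 and 137, macrophage markers to 172 and 118 and mesothelial markers to 104 and 86.95, while the pluripotency markers Pou5f1, Nanog and Zfp42 summed to 0.016 and 0.033. In bulk tissue, fewer cells of a type and less RNA per cell cannot be told apart.

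Of the 15474 genes, 1447 (9.35%) were higher by 2-fold or more at day 46, and 962 (6.22%) were lower by as much. A 4-fold difference was reached by 168 higher genes (1.09%) and by 114 lower ones (0.737%). The median of all genes was 0.0, with quartiles of -0.44 and 0.40. More genes were above background at day 46 (15452) than at day 42 (13378). However, the lowest level flagged above background was -5.69 at day 42 and -7.24 at day 46. The day 46 array thus reached dimmer genes, and wider expression and a lower floor cannot be told apart in these counts. Of those above background on 1 array only, 2096 were seen at day 46 and 22 at day 42, and 1073 of them gave no measurable difference. The difference also depended on level. Among the 13356 genes above background on both arrays, in the 10% with the lowest mean level the median difference was 0.39 and 25% were at least 2-fold higher, whereas in the 10% with the highest level the median was -0.39 and 1.65% were at least 2-fold higher. Olfactory and vomeronasal receptors, which gut tissue is not known to use as a class, showed this low end: of 635 compared, 173 were at least 2-fold higher and 4 lower, with a median of 0.41, or 1.13 over those above background on both arrays. The receptors above background numbered 163 at day 42 and 633 at day 46. Over all 635, the median was 0.0 under median centring and under quantile normalization and 0.51 after loess on mean level. Only 161 of them were above background on both arrays, and for the others a bound not above 0 was set to 0. The 0.0 therefore does not mean that the difference of those on both arrays was removed. Small positive differences of dim genes are therefore given beside this background, and medians of gene lists are also given after a smooth curve of difference against mean level was removed (loess). After loess, 1103 genes (7.13%) were higher by 2-fold or more, and 935 (6.04%) were lower. The balance turned under other settings, with 603 higher and 2783 lower under median centring, 801 and 1091 under quantile normalization, and 486 and 819 after normexp background correction.

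**Figure D1:**
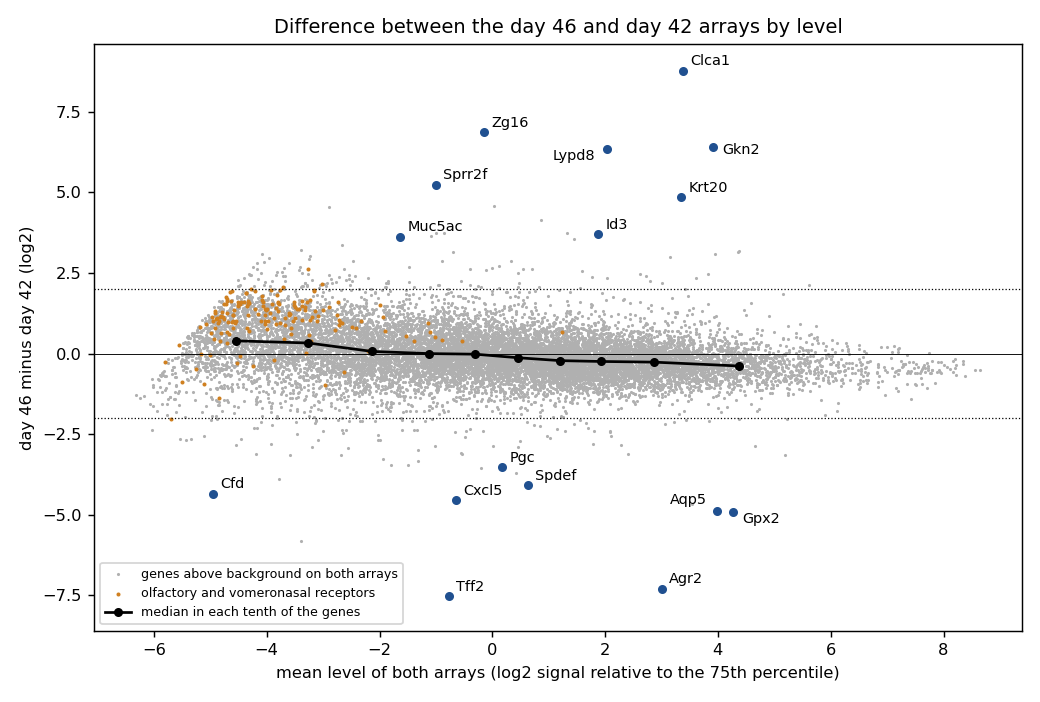
Each grey point is a gene above background on both arrays, with its mean level on the x axis and the log2 difference (day 46 minus day 42) on the y axis. Orange points are olfactory and vomeronasal receptors, and dotted lines mark 4-fold. The black line of medians slopes from 0.39 in the dimmest 10% to -0.39 in the brightest, while the named genes in blue lie far outside the cloud, from Clca1 at 8.77 to Tff2 at -7.52.

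The widest differences on both sides included genes known from gut and gastric epithelium. Clca1, a secreted protein of goblet cell mucus, had a level of -1.01 at day 42 and 7.76 at day 46, a difference of 8.77. Its day 46 level lay near that of adult intestine (7.50) and above that of adult stomach (0.86). Zg16, a goblet cell lectin that binds bacteria, had -3.58 and 3.29, a difference of 6.87, against 9.65 in adult intestine. Lypd8, an anchored protein of gut epithelium that keeps motile bacteria away, had -1.14 and 5.20, a difference of 6.34 by the probe that stood for it and 6.54 by the other probe. Zg16 was at -4.14 in adult stomach, whereas Lypd8 was bright in adult stomach (6.68) as well as in adult intestine (7.03). Krt20, a keratin of differentiated gut epithelium, had 0.92 and 5.77, a difference of 4.85. Gkn2, a gastrokine of gastric surface cells, had 0.72 and 7.12, a difference of 6.4, and its level in adult stomach was 9.6. Gkn2 was not above background in adult intestine, esophagus or lung or at E9.5.

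On the lower side, Tff2, the trefoil peptide of mucous neck cells, had 3.0 at day 42 and -4.52 at day 46, a difference of -7.52. Agr2, a disulfide isomerase needed to fold mucins, had 6.65 and -0.65, a difference of -7.30. The day 42 level of Agr2 was close to that of adult stomach (6.57). Gpx2, the glutathione peroxidase of gut epithelium, had 6.73 and 1.82, a difference of -4.91. Aqp5, a water channel of secretory glands, had 6.42 and 1.54, a difference of -4.88. It was bright at day 42 although adult stomach gave -1.24 and adult lung 5.50. Cxcl5, a chemokine that attracts neutrophils, had 1.63 and -2.92, a difference of -4.55, and its levels in adult stomach (-5.42) and at E9.5 (-5.52) were below both. Cfd, the complement factor adipsin, had -2.77 and -7.12, a difference of -4.35. Its day 46 level lay near the lowest level flagged above background on that array (-7.24). Among genes not above background at day 46, Caskin1 was at least 12.7-fold and Umodl1 at least 11.2-fold lower. Among those not above background at day 42, Serpina12 was at least 36.3-fold, Ces3b at least 17.2-fold, Krt12 at least 14.6-fold and Gkn1 at least 14.2-fold higher.

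**Figure D2:**
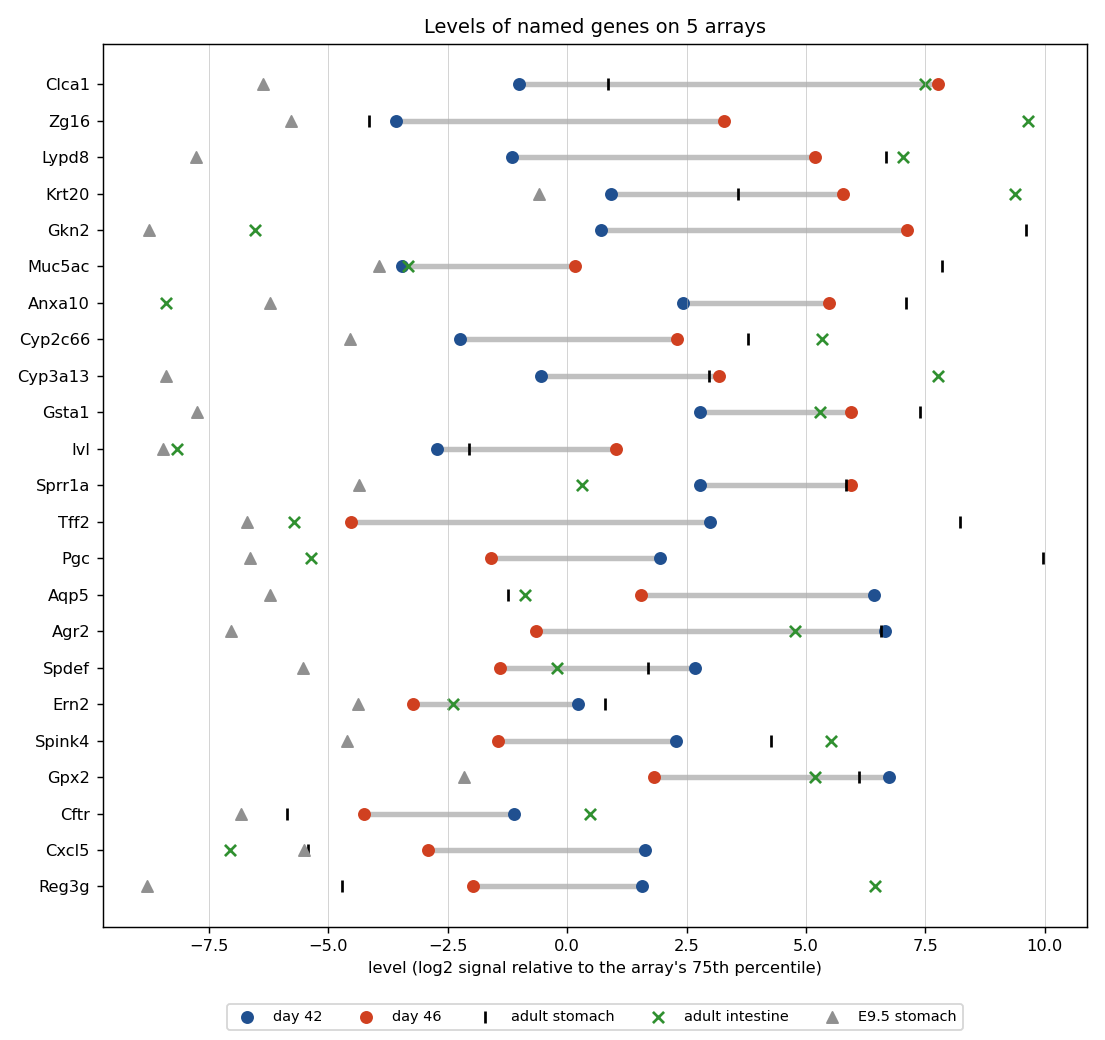
Levels of selected named genes (x axis, log2 signal relative to the array's 75th percentile) on 5 arrays, 1 point per array, with a grey bar from day 42 to day 46. Values below background are drawn as measured. Clca1 to Sprr1a lie higher at day 46, and Tff2 to Reg3g lie higher at day 42, with Clca1 reaching 7.76 against 7.50 in adult intestine.

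Gastric lineages differed in opposite directions. Of 12 surface mucous cell genes compared, 7 were at least 2-fold higher and 1 lower, with a median of 1.94 (1.95 after loess). Muc5ac, the gel-forming mucin of the gastric surface, had -3.45 and 0.17, a difference of 3.62, although its other probe gave 1.81. Its level in adult stomach was 7.86. Anxa10, an annexin of gastric epithelium, had 2.42 and 5.49, a difference of 3.07, against 7.10 in adult stomach. Gsdma, a gasdermin of gastric and skin epithelium, had -4.09 and -2.05, a difference of 2.04. It is not particular to stomach, with 5.02 in adult stomach and 5.0 in adult esophagus. The exception among the surface mucous cell genes was Gkn3, another gastrokine, with 5.88 and 1.21, a difference of -4.68. Its day 42 level lay above that of adult stomach (3.09). Of 10 neck and chief cell genes, 6 were at least 2-fold lower and none higher, with a median of -1.67 (-1.77 after loess). Besides Tff2 and Aqp5 these included Pgc, the pepsinogen of chief cells, with 1.94 and -1.59, a difference of -3.52, against 9.96 in adult stomach. A4gnt, which caps the glycans of gland mucin, was above background at day 42 only and at least 4.58-fold lower. Of 10 parietal cell genes, 2 were at least 2-fold higher and 2 lower. The median was 0.0, or -0.18 over those above background on both arrays. Car2, a carbonic anhydrase that feeds acid secretion, had 1.67 and 3.91, a difference of 2.24. The channels Slc26a9 and Kcnq1 went the other way, with differences of -1.88 and -1.56.

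The secretory list was split as well. Of 15 goblet and secretory genes, 6 were lower by 2-fold or more and 3 were higher, with a median of -0.56. Clca1 and Zg16 were among the higher members. Among the lower members, Spdef, a transcription factor of goblet and mucous cells, had 2.68 and -1.41, a difference of -4.09. Ern2, the stress sensor of mucus-secreting cells, had 0.22 and -3.22, a difference of -3.44. Spink4, a secreted peptide of goblet cells, had 2.28 and -1.44, a difference of -3.72. All 3 were lower at day 46. Elapor1, a membrane protein of secretory granule-bearing cells, had -0.07 and -3.54, a difference of -3.47. The 64 mucin glycosylation enzymes counted 5 higher and 6 lower, with a median of -0.04, and the sulfotransferase Chst2 (2.41) and the fucosyltransferase Fut4 (2.10) led the higher side. Of 24 absorptive enterocyte genes, 5 were at least 2-fold higher and 2 lower. Their median of 0.41 was 0.00 under median centring and 0.0 under quantile normalization, where bounds set to 0 can give the 0.0. Over those above background on both arrays the main setting gave 0.42. Apart from Krt20, those named were dim: the cadherin Cdh17 had -5.09 and -3.77, against 4.75 in adult intestine, and the brush border disaccharidase Sis was above background at day 46 only, at -4.34 against 7.90.

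Squamous and barrier genes included several of the higher genes. Of 27 squamous and cornified envelope genes, 8 were at least 2-fold higher and 3 lower. Their median of 0.26 was 0.0 under median centring and under quantile normalization and -0.04 after normexp. A median of 0.0 can come from bounds set to 0. Over the genes above background on both arrays the main setting gave 0.33. Ivl, the envelope protein involucrin, had -2.72 and 1.02, a difference of 3.74, and its day 46 level was above all 5 reference arrays. Sprr2f, a small proline-rich envelope protein, had -3.63 and 1.61, a difference of 5.24, also above all 5. Sprr1a, of the same family, had 2.78 and 5.95, a difference of 3.17, near the 5.83 of adult stomach, which in mice has a squamous forestomach. The basal keratin Krt5 (0.43 and 2.34) and loricrin, Lor (-1.70 and 0.22), differed by 1.91 and 1.92 and lay far below adult stomach (6.23 and 9.5). Of 35 keratins, 10 were at least 2-fold higher and 1, Krt17 (-2.23), lower, with a median of 0.43 that was 0.01 under median centring. The keratins were dim, with a median level of -5.01 at day 42. Their share of higher genes (28.6%) was near that of the olfactory and vomeronasal receptors (27.2%), against 9.35% of all genes. The 22 Ly6-type proteins and gasdermins counted 11 higher and 2 lower, with a median of 0.99 (0.87 after loess, 0.58 under median centring). Besides Lypd8 they included Ly6k (2.32) and Ly6f (2.22), both at -5.14 or below at day 42. Among junction genes, Cldn4 (1.90) was higher, whereas Cldn2 (-2.80) and Cldn8 (-1.97), other claudins that set the permeability of tight junctions, were lower.

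BMP signalling genes were read by role. The targets had the most members past 2-fold: 9 of 16 were higher by that much and none lower, with a median of 1.24 (1.19 after loess, 0.82 under median centring). Id3, an inhibitor of helix-loop-helix factors, had 0.02 and 3.72, a difference of 3.70. Its relatives differed by 2.01 (Id1, 2.41 and 4.42), 1.43 (Id2, 2.85 and 4.27) and 1.31 (Id4, -1.43 and -0.12). All 4 of these Id genes were thus higher at day 46. Both probes of Id1 lay at 2.01 or above, and those of Id2 between 1.17 and 1.43. The feedback inhibitor Smad6 had -1.11 and 1.78, a difference of 2.88, and Smad7, which acts likewise on BMP and TGF-beta receptors, had -0.90 and 1.13, a difference of 2.03. Hamp, the iron hormone hepcidin, was not above background at day 42 and was at least 7.68-fold higher at day 46. Gata2 (1.65) and Hey1 (1.16) were higher too. Bambi (0.47), Msx1 (0.49) and Atoh8 (0.27) differed by less than the 0.514 between probes, and Tbx2 by -0.34. Msx2, Smad9 and Dlx2, above background at day 46 only, gave bounds of 0.0 to 0.01, and Dlx3 was not above background on either array.

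The BMP ligands, receptors and Smads as a group gave 3 higher and 1 lower of 20, with a median of 0.00. The type I receptor Acvr1 (-0.42 and 1.32) differed by 1.75, Bmp2 (-2.31 and -0.91) by 1.41 and Gdf10 (-2.23 and -0.89) by 1.35. Bmp4 itself, the factor added as protein, had a transcript level of -0.40 and -0.99, a difference of -0.59, and Bmp7 differed by -1.01. The receptors Bmpr1a (0.14, or 0.94 at its other probe) and Bmpr2 (0.83) were less than 2-fold apart. Probes of the transducers disagreed in sign, from -0.15 to 0.42 for Smad1, from -0.31 to 0.44 for Smad5 and from -0.03 to 1.38 for Smad4. Of 15 secreted antagonists, 2 were higher and 2 lower. Fst, follistatin, which binds activins and some BMPs, had -4.01 and -1.69, a difference of 2.32. Grem1 (-1.06) and Chrdl2 (-1.29) were lower. Noggin's own transcript, Nog, had -3.64 and -2.76, a difference of 0.88. The letters GGCGCC, a palindrome to which BMP-regulated Smads bind, stood in the 250 bases before the start of 6 of the 11 targets with a promoter entry (54.5%), against 16.8% of 12321 compared genes with an entry. Those 6 were Dlx2, Gata2, Hamp, Id2, Id4 and Smad9. Of the 11, 6 were at least 2-fold higher, and 4 of these held the letters. Dlx2 and Smad9 held them as well and were not 2-fold higher. A link between the letters and the difference was not tested.

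Hedgehog genes showed less. Of 10 targets, none was higher by 2-fold and 1 was lower, with a median of 0.27 that became -0.03 after loess and -0.14 under median centring. Gli1, the transcription factor most often used as a hedgehog readout, had -4.41 and -3.43, a difference of 0.98 (0.49 after loess). Gli2 had -2.87 and -2.0, a difference of 0.87 at one probe, while the other probe gave no measurable difference. The receptor and target Ptch1 had -4.83 and -4.46, a difference of 0.37 that was -0.01 after loess. Hhip, a decoy receptor, was above background at day 46 only and at least 1.58-fold higher. The mesenchymal forkhead genes Foxf1 (0.17) and Foxf2 (0.01), Gli3 (-0.06) and Bcl2 (-0.11) were close to 0. The one lower target was Osr1, a zinc finger gene of mesenchyme, with -0.19 and -1.81, a difference of -1.62, and -1.43 at its other probe. Among ligands and receptors, Ihh had -1.0 and -2.71, a difference of -1.71, and Dhh had -0.57 and -2.64, a difference of -2.06. Both ligands made in the tissue were thus lower at day 46. The Shh transcript was not above background on either array. The co-receptor Gas1 (-0.49 and 0.57) differed by 1.06 and Boc by 0.87, while Cdon (0.06), Sufu (-0.01), Smo (-0.46) and Disp1 (-0.50) lay within the spread between probes.

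**Figure D3:**
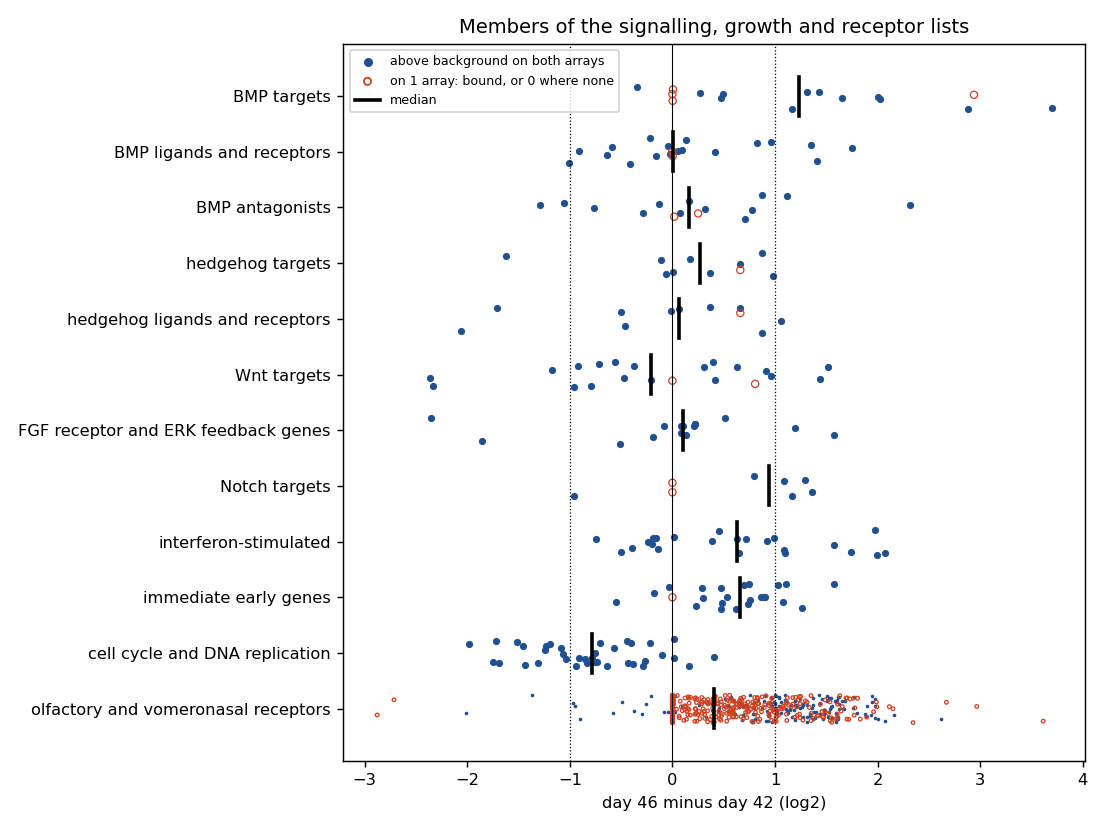
Each point is a gene of the list named on the y axis, placed by its log2 difference (day 46 minus day 42) on the x axis, with dotted lines at 2-fold, black bars at the medians and vertical scatter without meaning. Open points were above background on 1 array only and stand at their bound. BMP targets reach 3.70 with a median of 1.24, hedgehog targets stay between -1.62 and 0.98, and the cell cycle genes reach -1.99 with a median of -0.78.

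Other signalling lists went both ways. Of 21 Wnt targets, 3 were lower by 2-fold or more and 2 were higher (median -0.21), which turned to 2 lower and 4 higher after loess. Lgr5, the R-spondin receptor of gut stem cells, had 2.31 and -0.03, a difference of -2.34, and the transcription factor Sp5 had -1.49 and -3.85, a difference of -2.36. Lef1 (-4.03 and -2.51) and the Wnt inhibitor Notum (-3.40 and -1.96) differed by 1.52 and 1.44. Among ligands and receptors, Rspo1 differed by -1.79 and Fzd5 by 1.90. In the FGF list, 2 of 15 were higher and 2 lower: Fgfr4 had 0.78 and -1.58, a difference of -2.35, and Etv4, a factor downstream of FGF receptors, had 0.65 and -1.21, a difference of -1.86. The feedback inhibitors Spred2 (1.57) and Spry4 (1.19) were higher. Areg, an EGF receptor ligand, had 1.01 and 2.51, a difference of 1.5. Of 8 Notch targets, 4 were higher by 2-fold or more and none was lower, with a median of 0.94 (0.61 after loess, with 1 of 8 still 2-fold higher, 0.42 under quantile normalization and 0.13 after normexp). They were Heyl (1.36), Hes5 (1.30), Hey1 (1.16) and Hes1 (1.09), and the ligand Dll1 differed by -1.64 while Dll4 differed by 1.53. Of 24 immediate early genes, 5 were higher and none lower (median 0.66, or 0.79 after loess and 0.25 under median centring), led by Klf4 (1.57) and the phosphatase Dusp1 (1.26). The YAP targets Amotl2 (1.77), a junction protein, and Ccn1 (1.67), a secreted matrix protein, were higher in a list of 9 in which 3 were higher and none lower.

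Of 23 interferon-stimulated genes, 7 were higher by 2-fold or more and none was lower, with a median of 0.63 (0.49 after loess, 0.22 under median centring). Oasl1, of the 2′-5′ oligoadenylate synthetase family, had -1.24 and 0.83, a difference of 2.07. Ifi44 had -3.15 and -1.15, a difference of 1.99. Ifit1, which binds foreign RNA and helps block its translation, had -3.88 and -1.90, a difference of 1.98. Ifit3, its partner, had -1.19 and 0.56, a difference of 1.75. Of 17 antigen presentation genes, a class that interferon is also known to act on, none was higher or lower by 2-fold, and the median was -0.25. The interferon response element, searched as GAAA, any 2 bases and GAAA, stood on either strand in the 250 bases before the start of 10 of the 18 genes with a promoter entry (55.6%), against 3.4% of 12321 compared genes. Of these 18, 6 were at least 2-fold higher, and 3 of the 6 held it, so it was not more frequent among them. Whether the element goes with the difference was not tested. The 160 bases before the start of Ifit1 and Ifit3 are shown because each holds the element more than once. They come from RefSeq (GRCm38.p6) and are written on the gene's strand, with the matches, here on the opposite strand, in capitals.
Ifit1 (chr19:34640729-34640888, plus strand): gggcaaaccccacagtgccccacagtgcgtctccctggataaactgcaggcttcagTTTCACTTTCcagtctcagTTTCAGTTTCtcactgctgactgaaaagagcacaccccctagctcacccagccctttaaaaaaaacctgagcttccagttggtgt
Ifit3 (chr19:34583369-34583528, plus strand): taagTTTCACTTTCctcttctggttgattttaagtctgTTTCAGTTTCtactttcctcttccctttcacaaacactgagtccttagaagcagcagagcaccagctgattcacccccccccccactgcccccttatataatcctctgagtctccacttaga
The matches begin 104 and 85 bases before the start in Ifit1, and 156 and 122 bases before it in Ifit3. A match is a description of the letters and not a shown binding site.

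Cell cycle and DNA replication genes lay on the lower side. Of 37, 14 were at least 2-fold lower and none higher, with a median of -0.78 that was -0.96 after loess and -1.19 under median centring. Mcm5, a subunit of the replicative helicase, had 0.71 and -1.28, a difference of -1.99. Ccnb1, the mitotic cyclin, had -2.71 and -4.46, a difference of -1.75, and its 3 probes lay between -1.75 and -1.49. The mitotic kinase Aurka had 0.50 and -1.21, a difference of -1.72, and Cdc20, which activates the anaphase ubiquitin ligase, had 1.43 and -0.26, a difference of -1.69. All these genes were at 2.29 or above in the E9.5 stomach, where both cultures were exceeded. Of 15 cell cycle inhibitors, 1 was higher, Gadd45a (1.06), with Cdkn2a at 0.96 and Cdkn1c at -0.87. CCAAT boxes, common in promoters of mitotic genes, stood on either strand within 250 bases of the start of 23 of the 29 cell cycle genes with an entry (79.3%), against 39.9% of compared genes. Of the 29, 13 were at least 2-fold lower, and 11 of these held a box. Most of the others held one as well, and whether the box goes with the difference was not tested. The windows of Ccnb1 and Aurka each hold a pair, in capitals, and are shown on the gene's strand (RefSeq, GRCm38.p6).
Ccnb1 (chr13:100786487-100786646, minus strand): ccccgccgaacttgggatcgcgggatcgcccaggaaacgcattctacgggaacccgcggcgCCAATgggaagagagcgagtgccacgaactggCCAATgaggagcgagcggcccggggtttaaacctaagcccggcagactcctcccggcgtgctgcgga
Aurka (chr2:172370571-172370730, minus strand): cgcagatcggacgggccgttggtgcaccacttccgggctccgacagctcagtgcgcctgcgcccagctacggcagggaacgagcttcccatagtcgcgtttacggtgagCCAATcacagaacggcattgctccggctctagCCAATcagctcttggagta
The pair lies 99 and 67 bases before the start in Ccnb1, and 51 and 19 bases before it in Aurka.

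Genes of basic cell machinery had medians below 0, several of which moved towards 0 after loess. Of 77 ribosomal proteins, which are among the brightest genes, 1 was at least 2-fold lower and none higher, and the median of -0.55 became -0.06 after loess. The medians of 74 respiratory chain subunits (-0.59), 76 mitochondrial ribosomal proteins (-0.54) and 46 proteasome subunits (-0.39) became -0.29, -0.30 and -0.13. Ribosome biogenesis genes, at a median of -0.67 over 20 genes, kept -0.64 after loess, with 1 at least 2-fold higher and 2 lower. The 2 lower were the snoRNP proteins Nop10 (-1.08) and Fbl (-1.03), whereas Gar1 of the same list was higher (1.46). The glycolytic enzyme Gapdh, often used as a reference gene, had 7.83 and 6.88, a difference of -0.95, or -0.46 after loess.

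Metabolic and transport genes held members with large differences on both sides. Of 52 cytochrome P450 genes, 15 were at least 2-fold higher and 5 lower, with a median of 0.05 that was -0.01 under median centring. Most were dim (median level -3.73 at day 42), and the higher share (28.8%) was near the 27.2% of olfactory and vomeronasal receptors. Cyp2c66 had -2.25 and 2.31, a difference of 4.56, and Cyp3a13, of a drug-metabolising subfamily, had -0.54 and 3.18, a difference of 3.73. In adult stomach the 2 genes were at 3.78 and 2.96, and in adult intestine at 5.34 and 7.76. Cyp2a5, bright in adult lung (4.98), had -2.63 and -5.74, a difference of -3.11. The glutathione transferases Gsta1 (2.79 and 5.94) and Gsta2 (1.65 and 4.65) differed by 3.15 and 2.99, in a list of 41 conjugating enzymes with 5 higher and 9 lower. Among 23 genes of oxidative defence, 3 were lower, Gpx2, Nqo1 (-2.02) and Sod3 (-1.61), and 1 higher, Gclm (1.13). Of 23 cholesterol synthesis genes, 4 were lower and 2 higher. The synthesis enzyme Mvd had 3.29 and 0.90, a difference of -2.39, whereas the regulator Srebf2 differed by 1.31, and by 2.74 at its other probe. Solute carriers, which move small molecules across membranes, split almost evenly, with 36 of 292 higher and 31 lower. The nucleoside transporter Slc28a2 had -2.91 and 0.72, a difference of 3.63, and Slc12a8 had 0.17 and -2.83, a difference of -3.0. Of 124 ion channels and related genes, 21 were higher and 14 lower, which turned to 13 and 16 after loess. The chloride channel Cftr had -1.11 and -4.24, a difference of -3.14, while the sodium channel subunit Scnn1g was at least 6.4-fold higher. Water channels differed in direction, with Aqp3 (-1.67 and 0.58) at 2.25 against the -4.88 of Aqp5. Aqp4 gave 2.13 at one probe and -0.35 at another.

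Several lists of secreted defence and plasma proteins had more members lower than higher by 2-fold, though the 39 serpins, a family of protease inhibitors, had 10 higher and 7 lower. Of 21 Paneth and antimicrobial genes, 4 were at least 2-fold higher and 11 lower, with a median of -1.02 (-0.56 after loess). Reg3g, a lectin that kills Gram-positive bacteria, had 1.58 and -1.98, a difference of -3.55, and Bpifb1, a secreted protein of mucous surfaces, had 0.34 and -2.97, a difference of -3.32. The chitinase-like proteins Chil4 (-5.16 and -0.62) and Chil3 (-1.20 and 2.93) differed by 4.54 and 4.13 in the other direction. Of 20 complement genes, 8 were lower and none higher (median -0.82, or -0.73 after loess), among them Cfi (-2.19), Cfb (-1.73) and C3, with 8.13 and 6.72. Of 24 coagulation and acute phase genes, 9 were lower and 1 higher (median -0.77, or -0.69 after loess). Itih3 had 3.01 and 0.59, a difference of -2.42, and the haemoglobin scavenger Hp had 6.24 and 4.22, a difference of -2.02. The hepatocyte markers, a liver cell list with several of the same kind of plasma protein, summed to 136 and 116. Of 31 chemokines, 8 were lower and 3 higher. The eotaxins Ccl11 (1.00 and -2.10) and Ccl24 (-0.41 and -2.77) differed by -3.10 and -2.36, and Cxcl2 was at least 7.64-fold higher. Among 64 interleukins and receptors, 9 were higher and 7 lower, and Il1b (-4.73 and -1.79) and its antagonist Il1rn (-0.22 and 1.86) differed by 2.94 and 2.08. The macrophage list, whose members make some of these products, had 1 of 19 higher, Msr1 (1.32), and 1 lower, Aif1 (-1.0), with a median of -0.44. The part of macrophages and hepatocytes in these differences was not tested.

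Mesenchymal and muscle lists differed from each other. Of 10 mesothelial genes, 5 were at least 2-fold lower and none higher, with a median of -1.32 (-1.30 after loess). Upk3b, a membrane protein of mesothelium, had -2.22 and -4.71, a difference of -2.49, and the transcription factor Bnc1 had -2.42 and -4.53, a difference of -2.11. Of 24 cardiac muscle genes, 9 were lower and 1 higher, with a median of -0.81 (-0.52 after loess). Myl2, the ventricular light chain, had 1.91 and -0.99, a difference of -2.89, and the heavy chain Myh7 had 6.85 and 4.95, a difference of -1.90. The higher one was Tbx5, a heart and forelimb factor, with -2.46 and -0.61, a difference of 1.85 at one probe and 0.61 at the other. Of 13 smooth muscle genes, 2 were higher and none lower, with a median of 0.37 that was -0.04 under median centring, and Myh11 and its coactivator Myocd differed by 1.00 and 1.21. The 19 fibroblast genes had 1 on each side, Dpt (1.68) and S100a4 (-1.38). Matrix genes above the threshold included Cthrc1, a secreted collagen repeat protein, with -2.87 and 0.88, a difference of 3.74. Elastin, Eln, had -1.16 and 0.59, a difference of 1.75, and Col11a1 1.77, with 0.79 at its other probe. The protease Mmp7, which epithelium secretes, had 6.09 and 3.21, a difference of -2.88.

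Developmental regulators were mostly dim. Of 46 T-box, Nkx, Sox, Gata and Pax factors, 15 (32.6%) were at least 2-fold higher and 4 lower, with a median of 0.65 (0.49 after loess, 0.24 under median centring, 0.13 after normexp). Among olfactory and vomeronasal receptors the higher share was 27.2%, and among all genes 9.35%. Nkx6-2 had -5.06 and -2.61, a difference of 2.45, and was at 1.73 in adult stomach and at -1.24 in the E9.5 stomach. Gata3 had -2.94 and -0.77, a difference of 2.17, and Sox17 had -2.51 and -0.54, a difference of 1.97, with 2.02 at its other probe. Sox2, a foregut factor kept in stomach and esophagus, had -3.15 and -1.75, a difference of 1.40, and Foxa1 had -1.5 and 0.07, a difference of 1.57. Pax1 had -3.85 and -5.90, a difference of -2.04, with -0.22 at its other probe. The Hox genes, which mark position along the body axis, had 6 of 34 (17.6%) higher and none lower, a smaller higher share than that of the receptors. Their median of 0.43 was 0.02 under median centring. Hoxd10 (-5.53 and -3.45) and Hoxb9 (-4.87 and -3.03) differed by 2.08 and 1.83. Of 35 nuclear receptors, 8 (22.9%) were higher and 1 was lower, a smaller higher share than that of the olfactory and vomeronasal receptors. Their median was 0.0, or -0.02 over those above background on both arrays, and 5 were higher after loess. The fat cell regulator Pparg had 1.82 and 3.41, a difference of 1.59. Ehf, an ETS factor of epithelium, differed by -1.47.

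**Figure D4:**
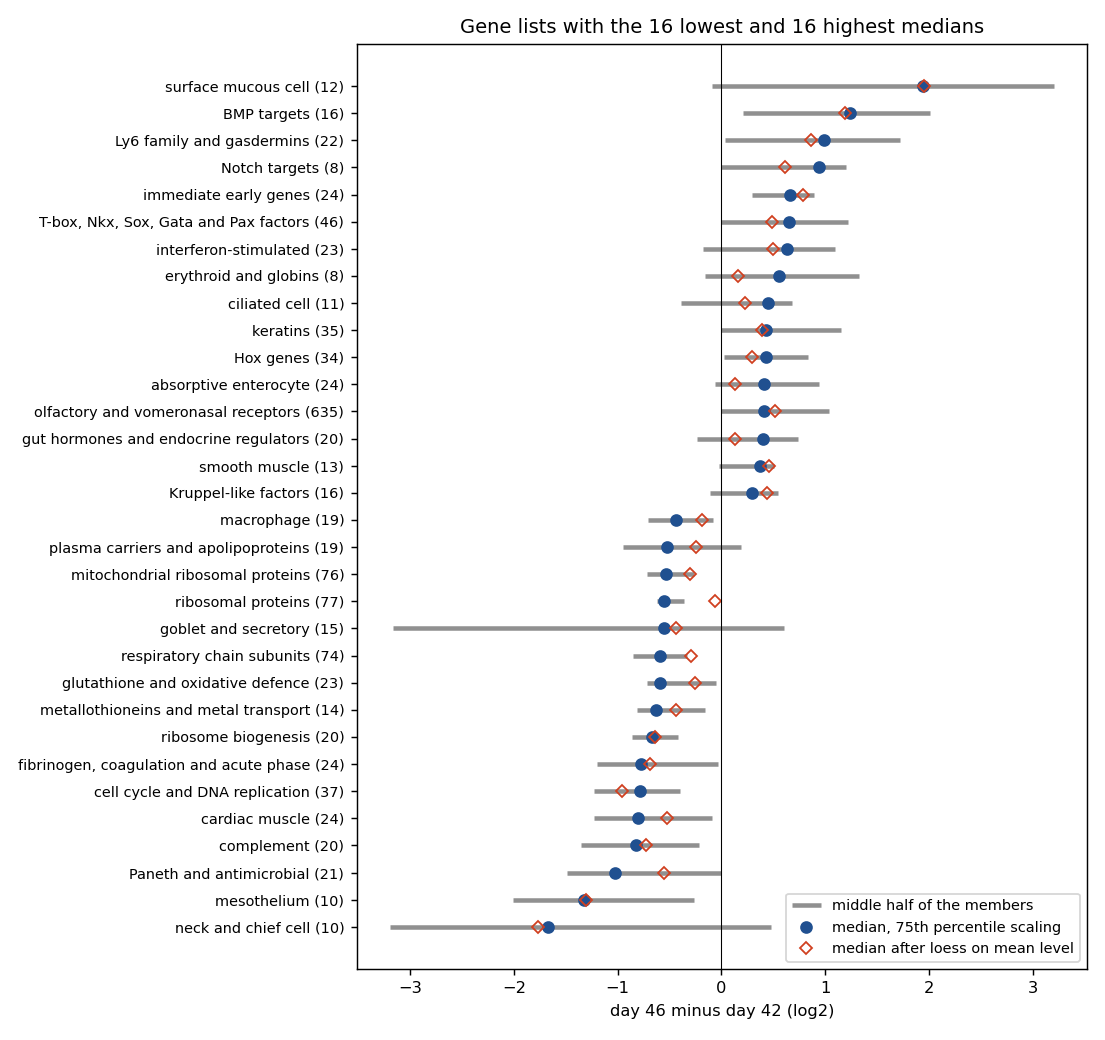
The gene lists of at least 8 compared genes with the lowest and the highest medians, with the number of genes in brackets and log2 difference (day 46 minus day 42) on the x axis. Grey bars run from the lower to the upper quartile, filled points are medians on the 75th percentile scale and open diamonds are medians after loess. Surface mucous cell (1.94) and BMP targets (1.24) lie at the top, neck and chief cell (-1.67) and mesothelium (-1.32) at the bottom, and the ribosomal proteins go from -0.55 to -0.06 after loess.

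The reference arrays placed the 4-fold genes. Among the 158 genes at least 4-fold higher that were measured on them, 31.0% had their highest level in adult stomach and another 31.0% in adult intestine, against 14.3% and 23.6% of all 14770 genes with such values. Among the 108 at least 4-fold lower, the shares were 26.9% for both organs. The E9.5 stomach held the highest level for 12% of the higher and 14.8% of the lower genes, against 34.3% of all. Of 69 other probes for genes at least 4-fold apart, 57 (82.6%) lay on the same side as the probe that stood for the gene.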

How the data were processed

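Total RNA of 7 samples was measured on 7 one-colour Agilent arrays, 1 array per group, and the day 42 and day 46 arrays were compared. The authors deposited scanner files of spot intensity, background-corrected per the file headers, and a log2 table of values scaled to each array's 75th percentile. The submitters' processing notes name Agilent Feature Extraction 10.5, and the headers of both arrays name 10.7.3.1. The deposited log2 columns had medians of -3.33 (day 42) and -2.92 (day 46) and correlated at 1.0 with the values used here.

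From log2 intensity, controls and outlier spots (131 and 104) were left out, spots of a probe were averaged, and the 75th percentile was subtracted. Of 41174 probes, 24375 were named through accessions and 57 through symbols in the RefSeq table, and 16742 stayed unnamed. The brightest probe stood for a gene. Where a gene was below background on 1 array, its value there was replaced by that array's lowest signal above background, unless its own was higher, so its fold is a bound; a bound not above 0 was set to 0. The 94 gene lists and the members were chosen with earlier results of these data known. Genes named were the 15 largest differences on each side, the 6 largest bounds on each side, up to 4 members of each list, and all hedgehog and BMP members; clone and locus numbers were skipped. A few genes that this rule names are not reported here. Alternatives were median centring, quantile normalization, loess (statsmodels 0.14.6), normexp with an offset of 50 (limma 3.58.1), the deposited table, no filter, both arrays above background, and the mean over probes. The calling of 4-fold differences was tested on simulated data with known changes. The simulation had the same floor on both arrays and noise below the 0.514 seen between probes. No simulated gene was above background at day 46 only, so bounds on the higher side were not tested.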

Additional observations from a re-analysis of the deposited data

Results flagged for a closer look

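Probes with no gene name took no part in the comparison. Of these, 11958 were above background on at least 1 of the 2 arrays, and with the same scaling and bounds 164 of them were higher by 4-fold or more at day 46 and 65 were lower by as much.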

How the results depend on the processing

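No paired analysis was possible because each group was 1 array. The counts depended on the scaling, which shifts all genes. Median centring moved the median of all genes to -0.39 and gave 603 genes at least 2-fold higher and 2783 lower, and 85 and 241 at 4-fold, so that 26.1% of the 4-fold genes were higher, against 59.6% in the main setting. Quantile normalization gave 801 higher and 1091 lower at 2-fold, and 110 higher and 196 lower at 4-fold (35.9% higher). Another background correction (normexp) gave 486 higher and 819 lower at 2-fold, and 55 higher and 67 lower at 4-fold (45.1% higher). Loess left 46.6% of 4-fold genes higher (125 and 143). With no filter, 2531 genes were higher and 1683 lower at 2-fold and 521 higher at 4-fold (76.8% higher). Of 299 named genes at least 2-fold apart, 242 stayed so under median centring, 232 under quantile normalization and 250 after loess. All 299 kept their direction in these settings, but not every setting could have turned it. Median centring shifts genes by less than 1, which cannot turn a 2-fold difference. Loess moved 406 of the 408 named genes by no more than 0.514. Under normexp 298 kept their direction, the exception being Ereg (-0.027 in place of 1.04), and 218 stayed 2-fold apart. With the mean over probes, 295 of 298 had the same direction: Serpinb1b became -0.106, Pax6 and Elavl4 gave no difference, and the median of the neck and chief cell list became -1.14. The spread between dim probes and the lack of a second array limit every value, and differences near the background were not measurable.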
